A study of Mus musculus with 68 samples.

Results

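The 10 genes described here, Pou5f1, Nanog, Sox2, Klf2, Klf4, Klf5, Esrrb, Tfcp2l1, Zfp42 and Tdgf1, encode core transcription factors of mouse pluripotency or are read as its markers. They were picked by symbol out of the 24421 reference symbols that each of 68 deposited gene tables lists, and all 10 were present in all 68 tables. Libraries were made with Smart-seq2, in which polyadenylated RNA of very small samples is copied along its full length and amplified. One set of libraries follows cumulus cells (CCs, 3 libraries), which surround the oocyte and served as nuclear donors, and somatic cell nuclear transfer (SCNT) embryos made by injecting CCs into enucleated oocytes of BDF1 mice (the name in the labels). These embryos were taken at 6 h and 14 h post activation (6 hpa, 14 hpa) and as embryos of 2 cells (early, E2C, and late, L2C), of 4 cells (4C) and of 8 cells (8C) and as morulae, and the blastocyst was parted into the inner cell mass (ICM) and the trophectoderm (TE). There were 5 libraries at 4C and 6 in each other SCNT group. A second set holds the ICM and TE of fertilized blastocysts whose zygotes had been injected with a morpholino oligonucleotide (MO), an antisense oligomer, against Max or Mcrs1, beside controls, with 2 libraries in each of 6 groups. Max encodes the bHLH partner of the MYC and MAD proteins, and Mcrs1 a nuclear protein found in chromatin-remodelling and acetyltransferase complexes. The 4 control libraries are labelled control and untreated, whereas the treatment notes name a random control MO. The paper describes the controls of this comparison as injected with that control MO. It gives a different concentration for each of the MOs, so MO and dose differ together. The methods give C57BL/6j mice for the fertilized embryos, so strain and origin differ together between the sets and cannot be told apart. Replicates are separate libraries, and nothing used here says which embryos each one holds, so p-values measure the spread between libraries.

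OCT4 (the protein of Pou5f1), SOX2 and NANOG bind many of the same enhancers and sustain one another's genes, and KLF2, KLF4, KLF5, ESRRB and TFCP2L1 act beside them in naive pluripotency, the state of the preimplantation epiblast. In the blastocyst this network is kept in the ICM, while the TE turns to the placental lineage under CDX2 and GATA3. Several of the factors, KLF5 among them, also work in the TE, and some transcripts are laid down in the oocyte before the embryonic genome is read.

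To place the genes, the 250 bases before the annotated start are printed for the members on which the comparisons turn: Tfcp2l1 and Klf2, which differed after MO injection, and Nanog, Klf4 and Zfp42, whose windows hold different motifs. The sequences were taken from RefSeq promoter windows of build GRCm38.p6 and run 5′ to 3′ on the strand of the gene. Capitals mark matches, on either strand, to 4 motifs that were searched: CACGTG (the E-box bound by MAX with its partners), ATGCAAAT (the octamer bound by OCT4), CATTGT (the core bound by SOX factors) and CCACCC (a core bound by KLF factors).
Tfcp2l1, chr1:118627695-118627944, plus strand: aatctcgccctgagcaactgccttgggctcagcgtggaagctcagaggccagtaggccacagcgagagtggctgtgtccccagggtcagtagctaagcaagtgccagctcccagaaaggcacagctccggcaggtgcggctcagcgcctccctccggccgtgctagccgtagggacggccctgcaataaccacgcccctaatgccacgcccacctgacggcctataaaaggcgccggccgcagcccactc
Klf2, chr8:72318812-72319061, plus strand: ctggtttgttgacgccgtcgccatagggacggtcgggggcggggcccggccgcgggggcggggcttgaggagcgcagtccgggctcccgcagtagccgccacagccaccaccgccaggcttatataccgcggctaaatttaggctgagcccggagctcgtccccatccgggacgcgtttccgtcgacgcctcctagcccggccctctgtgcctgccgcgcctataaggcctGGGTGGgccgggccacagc
Nanog, chr6:122707239-122707488, plus strand: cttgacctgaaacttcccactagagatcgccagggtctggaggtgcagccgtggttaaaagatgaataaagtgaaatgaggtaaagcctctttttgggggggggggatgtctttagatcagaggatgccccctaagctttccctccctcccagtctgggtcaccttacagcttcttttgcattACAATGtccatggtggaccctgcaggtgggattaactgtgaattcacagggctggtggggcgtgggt
Klf4, chr4:55532476-55532725, minus strand: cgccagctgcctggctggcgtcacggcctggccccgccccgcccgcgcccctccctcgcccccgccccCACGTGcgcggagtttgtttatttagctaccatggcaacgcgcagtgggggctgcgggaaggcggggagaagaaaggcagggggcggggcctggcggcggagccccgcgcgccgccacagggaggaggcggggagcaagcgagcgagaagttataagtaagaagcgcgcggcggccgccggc
Zfp42, chr8:43307010-43307259, minus strand: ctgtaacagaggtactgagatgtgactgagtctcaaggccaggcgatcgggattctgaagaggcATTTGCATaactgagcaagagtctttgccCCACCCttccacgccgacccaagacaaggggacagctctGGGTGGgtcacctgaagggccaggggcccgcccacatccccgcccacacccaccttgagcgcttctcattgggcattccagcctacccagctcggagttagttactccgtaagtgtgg

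Over windows of 250 bases before and 50 after the start, 9 members had an entry, with 12 windows in all, and Klf5 had none. CACGTG was found in 1 member, Klf4, and in 7.15% of the 32851 promoter windows of the table. ATGCAAAT was found in Zfp42 alone among the members and in 1.74% of all windows. CATTGT was found in Pou5f1, Nanog and Esrrb and in 12.6% of all windows, and CCACCC in Pou5f1, Nanog, Klf2, Esrrb and Zfp42 and in 31.5%. The Tfcp2l1 window held none of the 4. A match is only a match of letters.

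Levels are given as TPM, a transcript's share of its library scaled for gene length, so that genes can be set side by side. The tables hold no read counts, and depth is known only as aligned gigabases, 1.00 to 5.17 per library. Among the SCNT ICM libraries, replicates 1 to 3 had 6177 to 6771 genes at 1 TPM or more and replicates 4 to 6 had 9011 to 10032. TPM was scaled to the loci assembled from each library, and reference genes held 30.4 to 90.9% of that sum in SCNT libraries. At L2C the share was 30.4, 51.8 and 51.4% in replicates 1 to 3 and 61.8, 59.9 and 57.8% in replicates 4 to 6. At 4C it was 44.0, 52.3, 53.1, 75.6 and 73.5%. A member's TPM depends on this share, and fits on TPM rescaled over the reference genes are among the alternatives. A value of exactly 0 is written as listed at 0, since it may be a missed gene. In bulk libraries, fewer cells of a type and less RNA per cell cannot be told apart. A library of the second set stood apart: summed over 12 TE markers, control ICM replicate 1 held 16430 TPM and replicate 2 held 647, against 18840 to 21040 in control TE, and its Cdx2 was 57.7 TPM against 0.22. Called differences from control ICM are therefore also given without replicate 1. They then rest on control ICM replicate 2, which stood apart in another way. Its 10 oocyte transcripts summed to 47.8 TPM, against 0.14 in replicate 1 and at most 8.38 in the other libraries of that set. The SCNT ICM libraries held 2053 to 8539 TPM of the TE markers and the SCNT TE libraries 5169 to 16350, so these ranges met, although Cdx2, Gata2 and Gata3 were lower in SCNT ICM. Transcripts of CCs were at low levels in the embryos: 10 cumulus markers summed to 1424 to 2160 TPM in CCs, to 0.905 to 6.51 in SCNT ICM and to 0.174 to 60.4 in SCNT TE, where replicates 4 and 6 had 49.7 and 60.4 and the others at most 9.2. At the earlier SCNT stages the highest sum was 18.6 TPM, at L2C.

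In CCs, 3 members stood above 2 TPM in every library and most others were near 0. Klf2, a Krüppel-like factor with roles in endothelium and naive pluripotency, had 12.8, 11.9 and 9.96 TPM in the 3 CC libraries. Klf4, which acts in epithelia as well as in reprogramming, had 3.78, 3.92 and 2.18 TPM. Tdgf1 (Cripto), a membrane-anchored co-receptor of the growth factor Nodal, had 12.9, 35.9 and 8.95 TPM. By 6 hpa, in the enucleated oocyte's cytoplasm, Klf2 was at 0.126 to 1.56 TPM, Klf4 at 0.780 to 1.77 and Tdgf1 at 0.123 TPM or less. All 3 ranges lay wholly below those of CCs. Pou5f1, Nanog and Zfp42 did not exceed 0.141 TPM in any CC library, and Sox2 was listed at 0 in all 3. The CCs were described only and entered no test.

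**Figure D1:**
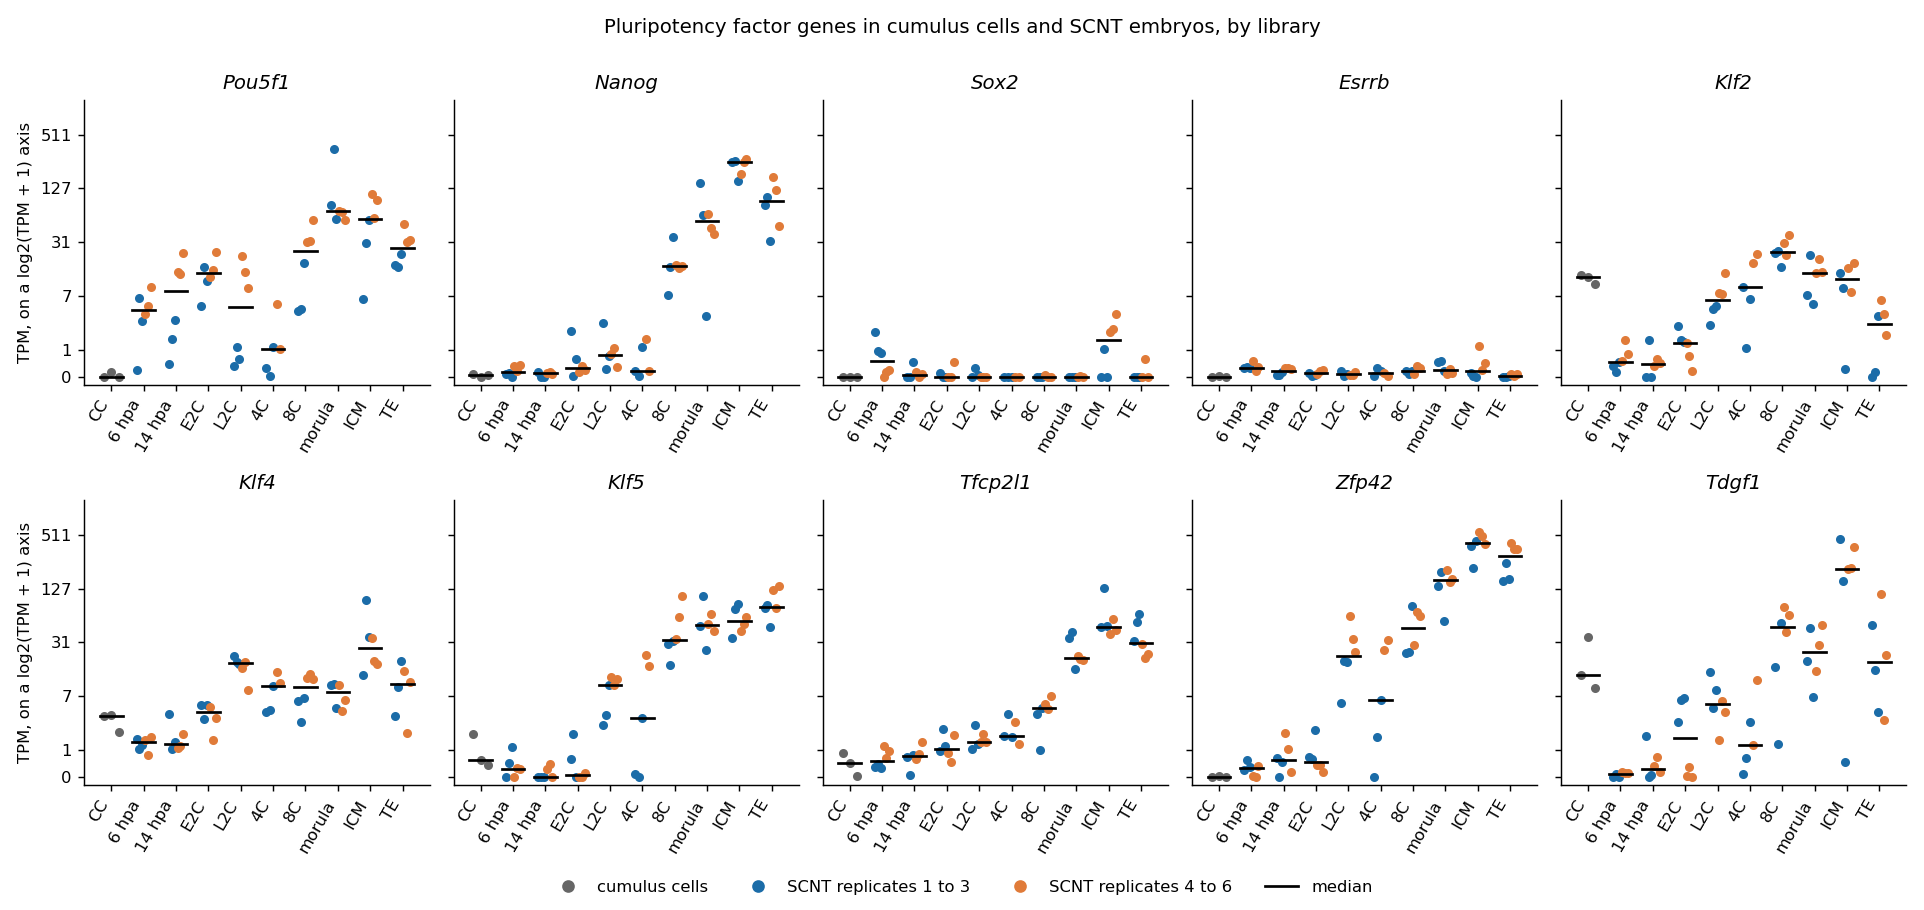
TPM of each member (vertical axis, drawn on a log2(TPM + 1) scale) in CCs and at each SCNT stage (horizontal axis), with a point for every library (grey for CCs, blue for SCNT replicates 1 to 3, orange for replicates 4 to 6) and a line at the median. Pou5f1 is above 1 TPM in most libraries from 6 hpa on, Nanog rises between 4C and 8C, and Zfp42 reaches 219 to 552 TPM in the ICM.

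Along SCNT development the members came on at different stages. By the first stage whose median reached 1 TPM, Pou5f1 and Klf4 were at that level from 6 hpa on, Klf2, Tfcp2l1 and Tdgf1 from E2C, Klf5 and Zfp42 from L2C, Nanog from 8C, and Sox2 only in the ICM. The reference row of Esrrb did not reach it at any stage. The first stage at 50% or more of a gene's highest stage median gave another order, with Klf4 at L2C, Klf2 at 8C, Pou5f1 and Klf5 at the morula, and Nanog, Sox2, Zfp42, Tfcp2l1 and Tdgf1 in the ICM. With a level of 5 TPM the first stage moved to 14 hpa for Pou5f1, to L2C for Klf4, Klf2 and Tdgf1 and to the morula for Tfcp2l1, and Sox2 no longer reached it. Nanog, Klf5 and Zfp42 kept their stage. At 5 TPM, and in replicates 1 to 3 alone at 1 TPM, Pou5f1, Klf5 and Tdgf1 stayed at the level only from 8C. Klf2 did not stay at it up to the TE in either setting. Replicates 4 to 6 alone, at 1 TPM, put Klf2, Tfcp2l1 and Tdgf1 at L2C and Zfp42 at 14 hpa, and in replicates 1 to 3 Sox2 did not reach that level at any stage. Tdgf1 at E2C was at 3.17, 6.35 and 6.69 TPM in replicates 1 to 3 and at 0.0231, 0.288 and 0 in replicates 4 to 6. The mean in place of the median put Nanog at L2C, and assembled loci put Zfp42 at E2C and Tfcp2l1 and Esrrb at 6 hpa. Most Tfcp2l1 and Esrrb loci at 6 hpa covered only part of the gene.

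**Figure D2:**
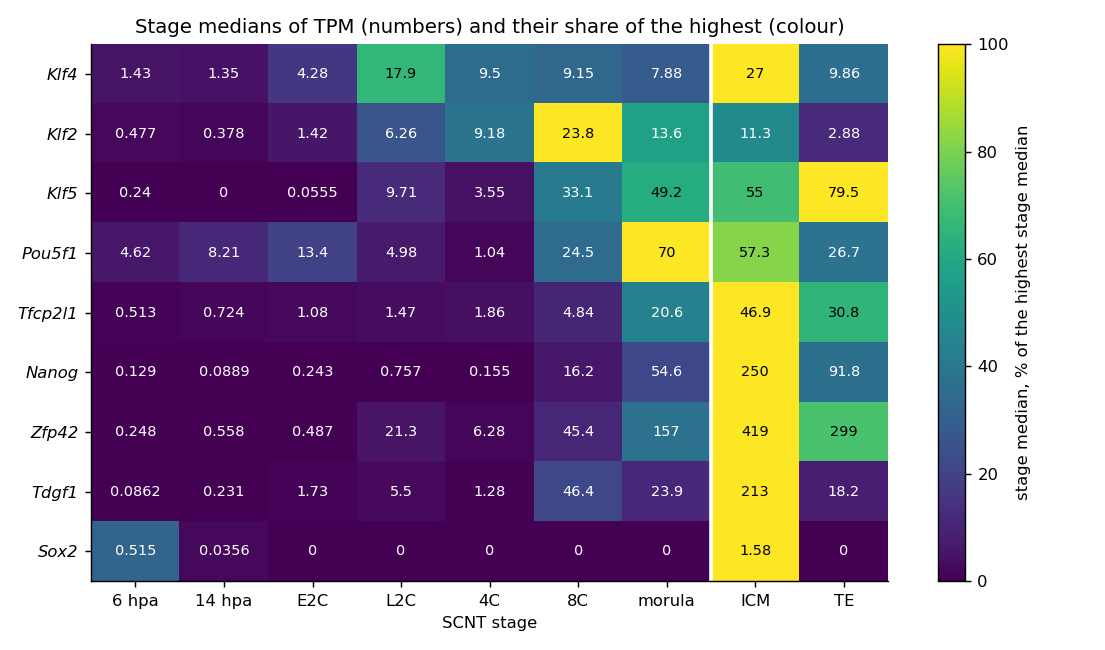
Median TPM of 9 members (vertical axis) at each SCNT stage (horizontal axis), printed in each cell and coloured as a percent of the gene's own highest stage median. Members are ordered by the stage at which 50% is first reached, and the stages run from 6 hpa to the ICM and TE; Klf4 passes that level at L2C, Klf2 at 8C, and Nanog, Zfp42, Tfcp2l1 and Tdgf1 first in the ICM.

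Between 6 hpa and E2C no tested member moved past the threshold. A gene is counted as higher or lower here when limma, run on log2(TPM + 1) over all genes with a mean of at least 1 TPM, gave a difference of 2-fold or more with an adjusted p below 0.05. At 14 hpa against 6 hpa 0 of 8 tested members were called, against 11.1% of the 11867 genes tested, and at E2C against 14 hpa 0 of 8, against 5.83%. At an unadjusted p under 0.05 the numbers were 0 and 1, the latter being Klf4 at E2C (log2 fold change 0.87, SE 0.39). Sox2 and Esrrb had too low a mean to be tested in the SCNT set. Pou5f1, present from the oocyte, ranged from 0.191 to 8.995 TPM at 6 hpa (median 4.62) and from 5.15 to 24.1 at E2C (median 13.4), and these ranges overlapped.

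At L2C, the stage of major genome activation, 4 of 8 tested members were higher than at E2C, against 23.7% of all genes tested. They were Zfp42 and the 3 KLF genes. Zfp42 (REX1), a zinc finger protein read as a marker of naive cells, had 0.126 to 2.38 TPM at E2C (median 0.488) and 5.76 to 62.4 at L2C (median 21.3), and no library of a stage overlapped the other. Its log2 fold change was 3.81 (SE 0.51, limma adjusted p = 3.27e-08). Klf5, which is needed for both the ICM and the TE, went from at most 1.99 TPM to 2.86 to 12.01, a log2 fold change of 2.67 (SE 0.49, adjusted p = 1.71e-05). Klf4 went from 1.62 to 5.45 TPM at E2C to 8.39 to 21.3 at L2C, again without overlap, with a log2 fold change of 1.80 (SE 0.39, adjusted p = 0.000201). Klf2 had a log2 fold change of 1.72 (SE 0.51, adjusted p = 0.00517), from 0.156 to 2.69 TPM to 2.84 to 13.6, and among replicates 1 to 3 alone it was 0.84 (adjusted p = 0.489). Pou5f1 split at L2C, with 0.328, 1.13 and 0.572 TPM in replicates 1 to 3 and 21.4, 13.8 and 8.83 in replicates 4 to 6, so that its difference from E2C was -1.46 (SE 0.69, adjusted p = 0.0881). Tdgf1, Nanog and Tfcp2l1 differed by 1.34, 0.36 and 0.24 and were not called, and the median difference of all genes was 0.26.

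Zfp42 was the 1 member of 8 that was lower at 4C than at L2C, where 26.6% of all genes were lower. Its 5 libraries at 4C held 0, 1.83, 6.28, 25.2 and 33.5 TPM, a log2 fold change of -1.68 (SE 0.54, adjusted p = 0.00916). The low values were those of replicates 1 to 3, and the ranges of both stages overlapped. Without 4C replicate 1 the difference was -0.97 (adjusted p = 0.117), and among replicates 4 to 6 it was -0.35 (adjusted p = 0.472). The other 7 tested members differed by -1.27 (Pou5f1) to 0.38 (Klf2) and were not called.

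At 8C 6 of 8 tested members were higher than at 4C, against 11.5% of all genes. Nanog, which stabilises the undifferentiated state, had 0.0221 to 1.64 TPM at 4C (median 0.155) and 7.23 to 36.0 at 8C (median 16.2), with no overlap. Its log2 fold change was 3.52 (SE 0.47, adjusted p = 1.72e-07). For Pou5f1 the values were 0.238, 0.0264, 1.13, 5.54 and 1.04 TPM at 4C and 4.498 to 55.5 at 8C (median 24.5), a log2 fold change of 3.15 (SE 0.72, adjusted p = 0.00109). Only the highest 4C library lay inside the 8C range. Klf5 had a log2 fold change of 3.13 (SE 0.52, adjusted p = 1.16e-05) and reached 16.8 to 104 TPM. Tdgf1 had 3.27 (SE 0.91, adjusted p = 0.0069), with 1.32 to 78.3 TPM at 8C, and Zfp42 2.60 (SE 0.54, adjusted p = 0.000303). Among replicates 1 to 3 alone Tdgf1 was not called (2.74, adjusted p = 0.187). Zfp42 was not called among replicates 4 to 6 (0.76, adjusted p = 0.163), where it had 25.2 and 33.5 TPM at 4C and 29.2, 69.3 and 61.5 at 8C. Klf2 was called by a small margin, with 1.46 (SE 0.53, adjusted p = 0.0411). Leaving out 4C replicate 1, 2 or 3 or 8C replicate 1, 2, 4, 5 or 6 ended the call of Klf2, with differences of 0.92 to 1.49 (adjusted p from 0.0508 to 0.254). Klf4 and Tfcp2l1 differed by 0.03 and 0.63 and were not called.

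At the morula Tfcp2l1 had the lowest adjusted p among the members. This CP2-family factor, which links LIF and STAT3 signalling to naive self-renewal, had 0.990 to 6.97 TPM at 8C (median 4.84) and 14.98 to 41.1 at the morula (median 20.6), with no overlap and a log2 fold change of 2.28 (SE 0.32, adjusted p = 1.12e-06). The loci assembled over Tfcp2l1 were already at 13.3 to 34.4 TPM at 4C and at 11.4 to 36.3 at 8C, against 33.8 to 60.8 at the morula, and in the fit on them the ranges met and the call was lost (1.09, adjusted p = 0.138). At 4C, however, only replicate 4 (13.3 TPM) held a locus over the whole gene, while at 8C all but replicate 2 did. The locus of 4C replicate 5 (31.2 TPM) ended at chr1:118637859, near the end of the processed transcript Tfcp2l1-202 (chr1:118637766). The 4C sums therefore need not measure the full mRNA. In all, 4 of 8 tested members were higher than at 8C, against 8.74% of all genes. Pou5f1 held 82.5, 351, 57.2, 70.5, 69.6 and 55.7 TPM at the morula, all above the highest 8C library, and its log2 fold change was 2.29 (SE 0.69, adjusted p = 0.0192). Replicate 2 was by far the highest, and without it the difference was 1.89 (adjusted p = 0.0778); without 8C replicate 1 or 2 it was 1.95 (adjusted p = 0.0714) or 1.96 (adjusted p = 0.0663). Zfp42 had a log2 fold change of 1.69 (SE 0.51, adjusted p = 0.0198), which without 8C replicate 1 or 2 was 1.53 in each case (adjusted p = 0.0591 and 0.0549). Nanog ranged from 3.77 to 148 TPM and was called at 1.29 (SE 0.45, adjusted p = 0.0464). That call was lost in 10 of the 12 fits that left out a library, all but those without 8C replicate 3 and morula replicate 3, with differences down to 0.92 and adjusted p up to 0.178. The 3 KLF genes and Tdgf1 were not called.

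From the morula to the SCNT ICM 5 of 8 tested members were higher, against 8.96% of all genes. Nanog rose to 249, 261, 154, 186, 250 and 274 TPM, all above the highest morula library, a log2 fold change of 2.42 (SE 0.45, adjusted p = 3.79e-05). Klf4 rose from 4.49 to 9.90 TPM to 12.8, 95.3, 36.0, 35.3, 18.7 and 17.6, again without overlap, with 1.86 (SE 0.39, adjusted p = 0.000253). Zfp42 held 219 to 552 TPM in the ICM (median 419) against 54.6 to 204 in the morula, with 1.51 (SE 0.51, adjusted p = 0.0228), and without morula replicate 3 with 1.24 (adjusted p = 0.0794). For Tfcp2l1 the log2 fold change was 1.18 (SE 0.32, adjusted p = 0.00476), and without ICM replicate 2, the highest with 130 TPM, it was 0.93 (adjusted p = 0.027), below 2-fold. Tdgf1 was at the edge with 2.23 (SE 0.87, adjusted p = 0.0495), and 9 of 12 fits without a library lost it, all but those without morula replicate 2 or 6 or ICM replicate 3, with adjusted p up to 0.139. Pou5f1, Klf2 and Klf5 differed by -0.98, -0.58 and 0.11 and were not called.

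From the morula to the TE Klf2 was the 1 member called, a count near the share of all genes. Against the morula libraries, which also served the ICM comparison above, limma called 0 of 8 members higher in the SCNT TE, where 11.0% of all genes were, and 1 lower, where 10.8% were, with 3 at an unadjusted p under 0.05. Klf2 fell from 5.51 to 22.03 TPM to 0, 0.118, 3.80, 6.19, 4.06 and 1.95, a log2 fold change of -2.20 (SE 0.51, adjusted p = 0.000735). The highest TE library lay just inside the morula range. Pou5f1 differed by -1.72 (SE 0.69, adjusted p = 0.0612), with 15.8 to 50.1 TPM in the TE, below all morula libraries but without passing the threshold. The other 6 differed by -0.32 (Tdgf1) to 0.95 (Nanog).

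**Figure D3:**
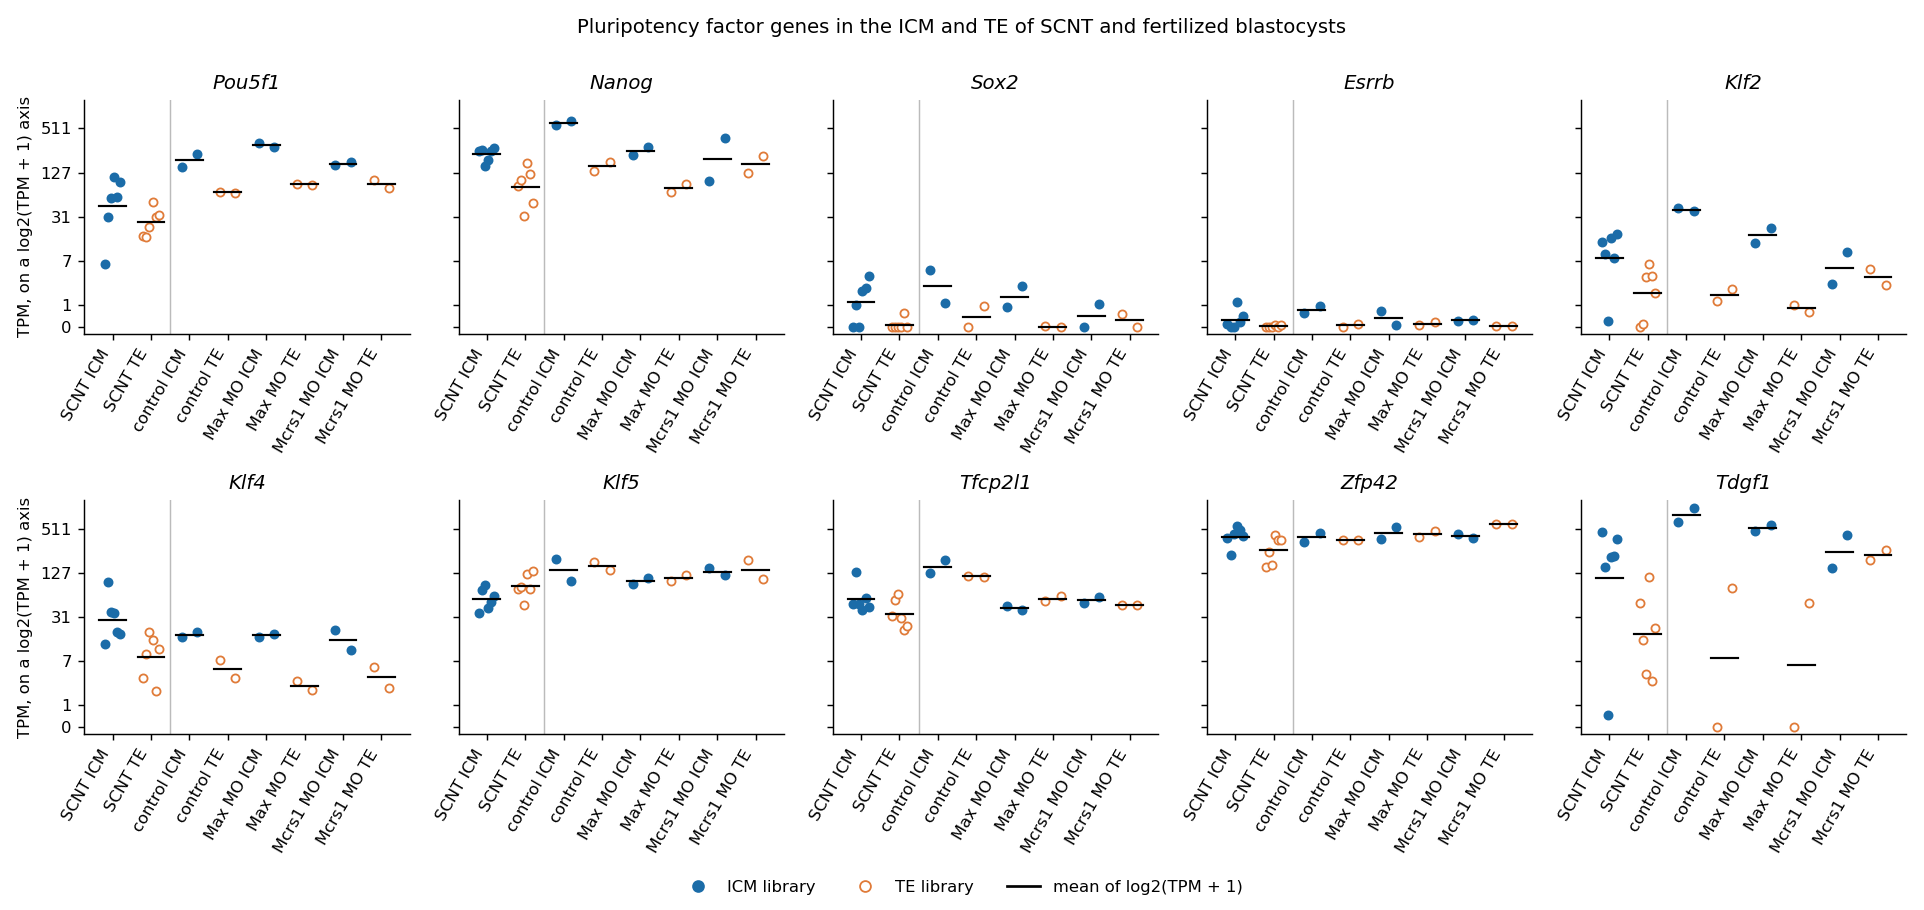
TPM of each member (vertical axis, drawn on a log2(TPM + 1) scale) in the ICM (filled points) and TE (open points) of SCNT blastocysts and of control, Max MO and Mcrs1 MO fertilized blastocysts, with a point for every library and a bar at the mean of log2(TPM + 1). Klf2 is at 37.3 and 40.9 TPM in control ICM and at 1.3 and 2.35 in control TE, and Tfcp2l1 is lower in all 4 ICM libraries of Max MO and Mcrs1 MO embryos than in control ICM.

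Within the SCNT blastocyst, Klf4, Klf2 and Nanog were higher in the ICM than in the TE, 3 of 8 tested members against 1.47% of all genes. Klf4 had the ICM values just given and 3.77, 9.11, 18.9, 14.4, 2.12 and 10.6 TPM in the TE. Its log2 fold change was 1.71 (SE 0.39, adjusted p = 0.0043), and although the ranges overlapped, none of the 12 fits that left out a library lost it. Those fits pool the spread over all SCNT groups. In the limma fit of the compared groups alone no member was called, and Klf4 had an adjusted p of 0.336. Nanog had 82.5, 101, 32.3, 172, 123 and 47.9 TPM in the TE, only the fourth of which reached into the ICM range, with a log2 fold change of 1.47 (SE 0.45, adjusted p = 0.0394). Klf2 had 13.6, 8.95, 0.229, 15.7, 7.79 and 17.8 TPM in the ICM, of which replicate 3 alone lay below the TE median, and a log2 fold change of 1.62 (SE 0.51, adjusted p = 0.044). The Nanog call was lost without ICM replicate 1, 2 or 6 or TE replicate 1, 3 or 6 (1.21 to 1.47, adjusted p 0.0605 to 0.121), and that of Klf2 without ICM replicate 1, 2, 4 or 6 or TE replicate 1, 2 or 6 (1.32 to 1.63, adjusted p 0.0677 to 0.142).

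Tdgf1 had the widest gap of medians between the SCNT lineages, 213 TPM in the ICM and 18.2 in the TE. The ICM libraries held 454, 153, 0.469, 211, 216 and 373 TPM and the TE libraries 48.9, 14.6, 4.29, 109, 3.30 and 21.9. ICM replicate 3 lay below every TE library while the other 5 lay above every one. The log2 fold change was 2.55 (SE 0.87, adjusted p = 0.0709), and without that replicate it was 3.79 (adjusted p = 0.000443). Without TE replicate 4 it was 3.06 (adjusted p = 0.0304).

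Sox2, the HMG-box partner of OCT4, was present at 6 hpa, with 2.19, 0.939 and 0.838 TPM in replicates 1 to 3 and less in the others. From 4C to the morula its highest value was 0.0389 TPM. The SCNT ICM libraries held 0, 1.03, 0, 2.13, 2.38 and 4.01 TPM, and 5 of 6 TE libraries were listed at 0 with 0.577 in the other. The libraries at or near the top were replicates 4 to 6, those in which more genes were detected. In the fit without a minimum level, which took every gene listed above 0 anywhere, Sox2 was higher in the ICM than in the TE by 1.02 (SE 0.24, adjusted p = 0.0086). That SE was pooled over all SCNT groups, and Sox2 was near 0 in most of them. It can therefore understate the spread between the ICM libraries.

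Pou5f1, Klf5, Zfp42 and Tfcp2l1 were not called between the SCNT lineages. Pou5f1 had 6.38, 30.5, 56.3, 109, 58.3 and 93.9 TPM in the ICM and 16.7, 15.8, 22.5, 50.1, 30.9 and 33.0 in the TE. The difference was 0.74 with a 95% interval from -0.65 to 2.12, which holds both no difference and one of over 2-fold. Klf5 leaned towards the TE, with 79.5 TPM at the median against 55.0 and a difference of -0.61 (interval -1.60 to 0.38). Among replicates 4 to 6 alone Klf5 was called lower in the ICM, with 42.0, 49.9 and 60.2 TPM against 124, 76.1 and 134 (-1.09, adjusted p = 0.0279), and among replicates 1 to 3 the difference was -0.13 (adjusted p = 1). Zfp42 differed by 0.61 (interval -0.42 to 1.63) and Tfcp2l1 by 0.68 (interval 0.02 to 1.33), and the ranges of both lineages overlapped for all 4 genes. Over the 8 tested members the median difference between ICM and TE was 1.10, and over all genes it was -0.08.

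In control fertilized blastocysts 2 of 9 tested members were higher in the ICM than in the TE, against 1.72% of the 11219 genes tested. Klf2 had 40.9 and 37.3 TPM in the ICM and 1.3 and 2.35 in the TE, a log2 fold change of 3.85 (SE 0.59, adjusted p = 0.0149). Pou5f1 had 153 and 230 TPM in the ICM and 68.7 and 67.0 in the TE, a log2 fold change of 1.45 (SE 0.24, adjusted p = 0.0178). Both pairs of libraries were well apart. Nanog, with 561 and 639 TPM against 135 and 175, was also apart, but its difference of 1.95 (SE 0.50) had an adjusted p of 0.0592. Tdgf1 held 631 and 989 TPM in the ICM and was listed at 0 and at 77.2 TPM in the TE, with 6.48 (SE 1.85, adjusted p = 0.0801). Klf4 (15.8 and 18.7 against 7.40 and 3.75 TPM) and Sox2 (5.12 and 1.2 against 0 and 0.947 TPM) did not overlap either and were not called. Klf5, Zfp42 and Tfcp2l1 differed by -0.19, 0.12 and 0.44. Of these only Tfcp2l1 did not overlap (126 and 188 against 116 and 112 TPM). Sox2 passed the filter of a mean of 1 TPM narrowly, helped by the 5.12 TPM of control ICM replicate 1. With 1 library left out it was tested in only 3 fits. Its other values lay near the floor, so its lack of overlap says little.

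Without control ICM replicate 1, whose TE markers were high, Klf2 was higher by 3.79 (adjusted p = 0.0039), Pou5f1 by 1.74 (adjusted p = 0.00045) and Nanog by 2.05 (adjusted p = 0.0329), so that 3 members were called. Without control TE replicate 1 the Klf2 difference was 3.58 (adjusted p = 0.128) and that of Pou5f1 1.47 (adjusted p = 0.126). Without control TE replicate 2 Pou5f1 had 1.44 (adjusted p = 0.0684) and Tdgf1 9.63 (adjusted p = 0.0379). The difference between ICM and TE was then compared between SCNT and control blastocysts in a fit of 16 libraries. In limma 0 of 9 members were called, and 0 had an unadjusted p under 0.05, against 1 of 10847 genes called, 0.00922%. For Klf2 the SCNT difference was smaller by 2.23 on the log2 scale (interval -5.20 to 0.74) and for Tdgf1 by 3.94 (interval -9.34 to 1.47), wide intervals that hold 0.

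By level, Zfp42, Nanog and Tdgf1 led in the SCNT ICM and Tdgf1, Nanog and Zfp42 in control ICM. In the SCNT ICM the medians ran from Zfp42 (419 TPM) through Nanog (250), Tdgf1 (213), Pou5f1 (57.3), Klf5 (55.0), Tfcp2l1 (46.9), Klf4 (27.0), Klf2 (11.3) and Sox2 (1.58) to Esrrb (0.150). Every neighbouring pair in that order overlapped in range, so single steps of it are not resolved by these libraries. In control ICM the ranges of Nanog and Zfp42 did not overlap, nor did those of Klf5 and Klf2 or of Klf2 and Klf4.

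The reference row of Esrrb, an orphan nuclear receptor of the naive network, is a poor measure of that gene here. It spans chr12:86361117-86521628 in mm10 on the plus strand and did not exceed 1.19 TPM in any library. Loci that the authors' assembly built from the reads inside the same span and strand held more: 6.42 to 15.03 TPM at 6 hpa, 0 to 23.5 at 14 hpa and 2.31 to 16.3 at the morula, with 0 in all 3 CC libraries. In the SCNT ICM they held 0, 0, 0, 31.5, 6.28 and 20.4 TPM and in the TE 0, 0, 0, 3.47, 0 and 3.13. All of replicates 1 to 3 were at 0 in both lineages. Control ICM had 15.4 and 23.3 TPM and control TE 0 and 1.75.

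The place of these Esrrb loci differed between stages. At 6 hpa each library held a locus that ended between chr12:86509170 and chr12:86509892. Those ends lie inside Esrrb-205 (chr12:86504409-86509967), annotated as a processed transcript and not as protein-coding. The other loci at 6 hpa lay at the 3′ end of the gene, from chr12:86519286 on. Most loci at 14 hpa and E2C ended in Esrrb-205 as well. The sums at these stages therefore need not measure the receptor's mRNA. A locus that began within 1000 bases of the annotated internal start at chr12:86470117 was built in 8 of 12 ICM libraries and in 5 of the 56 other libraries, of which 3 were morulae, 1 was at 8C and 1 at 14 hpa. Their starts lay 19 to 997 bases downstream of it. At 6 hpa, where all 6 libraries held an Esrrb locus, none began there. The contrast was seen after the loci had been looked at, and it was not tested.

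Both MOs were checked on their own targets. Max was at 38.0 and 8.42 TPM in control ICM and at 6.82 and 0.443 in Max MO ICM (log2 fold change -2.51, SE 0.80, adjusted p = 0.0397), and at 34.5 and 28.5 against 16.3 and 8.68 TPM in the TE (-1.32, SE 0.80, adjusted p = 0.39). The Max call in the ICM rested on single libraries: without control ICM replicate 1 it was -1.49 (adjusted p = 0.177) and without Max MO ICM replicate 2 it was -1.29 (adjusted p = 0.28). For Mcrs1, control ICM held 253 and 310 TPM and Mcrs1 MO ICM 86.8 and 73.4 (-1.80, SE 0.22, adjusted p = 0.00333), and the TE held 219 and 294 against 41.1 and 45.5 TPM (-2.53, SE 0.22, adjusted p = 0.000868), and both calls held with any 1 library left out (adjusted p up to 0.0387 in the ICM and 0.0192 in the TE). Since MOs act on translation or splicing, a level of RNA need not show the loss of the protein.

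In Max MO ICM the 1 member of 9 called was Tfcp2l1, which was lower, beside 15.1% of all genes lower and 8.65% higher. That count does not set the members apart from all genes. Control ICM held 126 and 188 TPM and Max MO ICM 44.3 and 38.3, far apart, a log2 fold change of -1.88 (SE 0.25, adjusted p = 0.00105). Without control ICM replicate 1 it was -2.17 (adjusted p = 0.00036), and without replicate 2 it was -1.59 (adjusted p = 0.0014). The loci assembled over Tfcp2l1 gave 183 and 188 TPM in control ICM and 44.8 and 44.3 in Max MO ICM.

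The other members of the Max MO ICM lay on both sides of control. Nanog had 224 and 284 TPM against 561 and 639, a log2 fold change of -1.25 (SE 0.50, adjusted p = 0.087), and Klf2 had 13.0 and 21.8 TPM against 40.9 and 37.3, -1.17 (SE 0.59, adjusted p = 0.164). Pou5f1 had 318 and 280 TPM against 153 and 230, 0.67 (SE 0.24, adjusted p = 0.0555). The libraries of these 3 genes did not overlap control, nor did those of Tdgf1 (478.5 and 564.8 against 631 and 989 TPM), but none passed the threshold. With 2 libraries a side, lack of overlap alone is weak, and its share over all genes was not counted. Klf4 differed by -0.02, Klf5 by -0.50, Zfp42 by 0.22, Tdgf1 by -0.60 and Sox2 by -0.48, and without control ICM replicate 2 Klf5 was lower by 1.02 on the log2 scale (value -1.02, adjusted p = 0.0324). The median over the 9 members was -0.50, and over all genes it was -0.21.

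In Mcrs1 MO ICM, Klf2 and Tfcp2l1 fell, 2 of 9 members against 5.21% of all genes lower, and 0 of 9 were higher against 4.88%. Klf2 had 2.93 and 9.44 TPM, both far below control, with a log2 fold change of -2.64 (SE 0.59, adjusted p = 0.0202). Tfcp2l1 had 49.2 and 58.0 TPM, a log2 fold change of -1.51 (SE 0.25, adjusted p = 0.00784). Both calls held without control ICM replicate 1 (Klf2 -2.58, adjusted p = 0.023, and Tfcp2l1 -1.80, adjusted p = 0.00088) and without replicate 2 (-2.71, adjusted p = 0.028, and -1.22, adjusted p = 0.013). Without Mcrs1 MO ICM replicate 1 both were lost, at -1.94 (adjusted p = 0.14) and -1.40 (adjusted p = 0.0745). These 2 comparisons share the control libraries with those of Max MO, so the fall of Tfcp2l1 after either MO was read against the same 2 libraries.

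Nanog split in Mcrs1 MO ICM, with 96.9 TPM in replicate 1 and 383 in replicate 2. Both lay below control, and the log2 fold change was -1.63 (SE 0.50, adjusted p = 0.0573), which without Mcrs1 MO replicate 2 was -2.62 (adjusted p = 0.0258). Tdgf1 had 146 and 411 TPM (-1.69, SE 1.85, adjusted p = 0.584). Pou5f1 had 161 and 176 TPM, between the control libraries, and a difference of -0.16 (interval -0.67 to 0.36). The difference of Zfp42 was 0.07, of Klf5 -0.07, of Klf4 -0.22 and of Sox2 -1.35, and none of these passed the threshold. The median over the members was -1.35, the value of Sox2 itself, and over all genes -0.05. Sox2 passed the filter narrowly, helped by control ICM replicate 1, so this median says little about the members as a set.

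**Figure D4:**
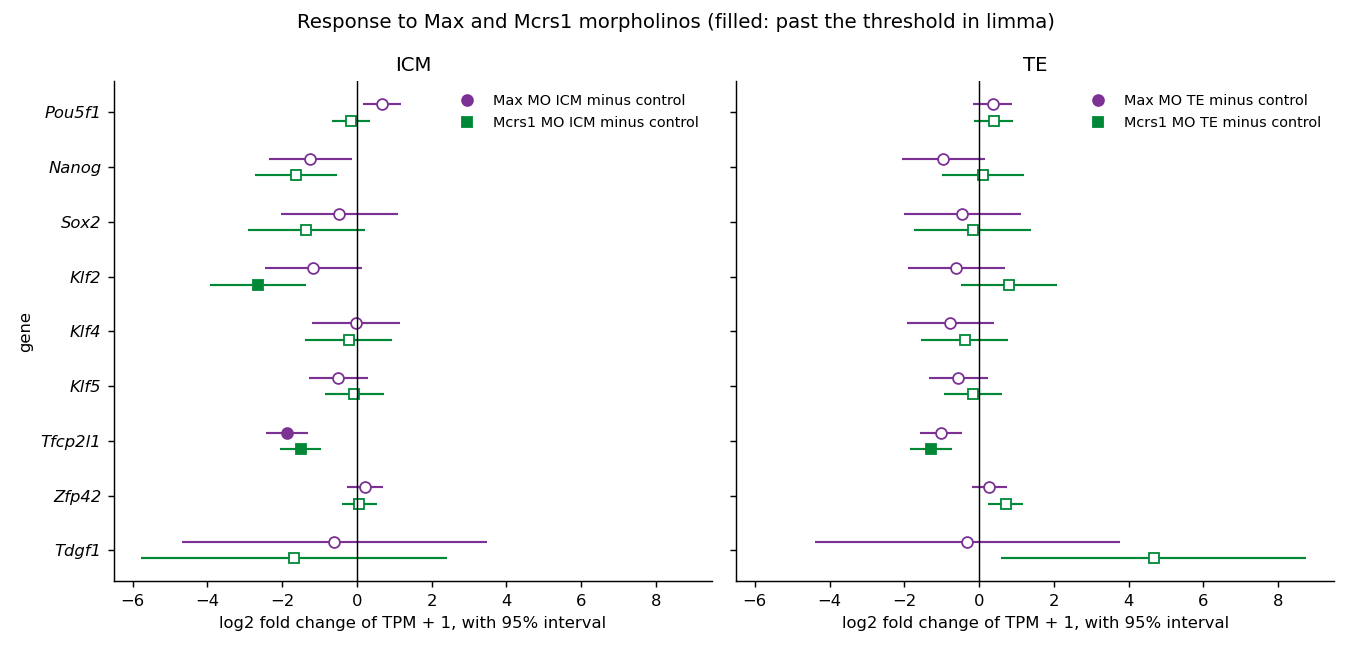
Log2 fold change of TPM + 1 (horizontal axis) with its 95% interval for each tested member in Max MO (circles) and Mcrs1 MO (squares) against control, in the ICM (left) and TE (right). Filled symbols are past the threshold: Tfcp2l1 with both MOs in the ICM and with Mcrs1 MO in the TE, and Klf2 with Mcrs1 MO in the ICM.

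TE markers and primitive endoderm markers moved beside these results in the ICM libraries. The 12 TE markers summed to 647 and 16430 TPM in control ICM, to 2801 and 5953 in Max MO ICM and to 8235 and 11760 in Mcrs1 MO ICM, with 1 of 11 tested, Tfap2c, lower in each (-2.03 and -1.95). Control ICM replicate 1 was set apart by these same markers. A fit without it sets them against the 647 TPM library alone, so it cannot show whether they rose. Tfap2c was lower in that fit too. Of 9 tested primitive endoderm markers out of 10, 2 were higher in each MO group, beside 8.65% and 4.88% of all genes: Sox17 by 6.18 (adjusted p = 0.00609) and Gata4 by 3.23 (adjusted p = 0.0166) in Max MO ICM, and Sox17 by 4.83 (adjusted p = 0.0354) and Gata4 by 3.43 (adjusted p = 0.027) in Mcrs1 MO ICM. Without control ICM replicate 1 Sox17 and Gata4 were still higher in both MO groups, Gata4 by 3.18 in Max MO ICM and by 3.37 in Mcrs1 MO ICM. Without Max MO ICM replicate 1, or without either Mcrs1 MO ICM library, both genes were lost (adjusted p 0.0565 to 0.177). The summed level of that list was 60.5 and 1530 TPM in control ICM, 440 and 313 in Max MO ICM and 572 and 569 in Mcrs1 MO ICM. In the TE it was 2167 and 1267 TPM in control, 853 and 1105 in Max MO and 668 and 663 in Mcrs1 MO. The library with 1530 TPM, control ICM replicate 1, had Sox17 and Gata4 listed at 0. The sum therefore need not measure primitive endoderm. The share of the assembled TPM that fell on reference genes was 85.5 to 90.3% in the 4 control libraries and 93.6 to 94.4% in the 8 MO libraries, without overlap. With TPM rescaled over the reference genes Tfcp2l1 was lower in Max MO ICM (adjusted p = 0.000939) and, at -1.64, in Mcrs1 MO ICM (adjusted p = 0.00783), and Klf2 at -2.78 in Mcrs1 MO ICM (adjusted p = 0.0191). The part of the markers in the falls of Tfcp2l1 and Klf2 was not tested.

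In the TE, Tfcp2l1 was again the 1 member called, with Mcrs1 MO alone. It had 116 and 112 TPM in control TE, 51.3 and 60.6 in Max MO TE and 45.8 and 45.5 in Mcrs1 MO TE. The Max MO difference of -1.01 (SE 0.25) had an adjusted p of 0.0593, so 0 of 9 members were called by limma, against 2.5% of all genes, and 1, Tfcp2l1, had an unadjusted p under 0.05. The Mcrs1 MO difference was -1.30 (SE 0.25, adjusted p = 0.0188), 1 of 9 members lower against 3.31% of all genes, and leaving out any of the 4 libraries lost it (-1.32 to -1.27, adjusted p 0.0702 to 0.139). Klf2, which fell in Mcrs1 MO ICM, had 5.21 and 2.74 TPM in Mcrs1 MO TE and 1.3 and 2.35 in control TE, the other way round, and was not called (0.80, adjusted p = 0.44). Tdgf1 had 193 and 259 TPM in Mcrs1 MO TE against 0 and 77.2 (4.67, SE 1.85, adjusted p = 0.149), and Zfp42 had 583 TPM in both libraries against 357 and 355 (0.71, SE 0.22, adjusted p = 0.0754). The other members differed by -0.39 to 0.39 in Mcrs1 MO TE.

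Whether a response differed between the lineages was tested by an interaction term, which in limma called 0 of 9 members for either MO and 0.0% of all genes, with 1 member for Max MO and 3 for Mcrs1 MO at an unadjusted p under 0.05. For Mcrs1 MO the response of Klf2 was lower in the ICM than in the TE by 3.44 on the log2 scale (value -3.44, SE 0.83, adjusted p = 0.411) and that of Tdgf1 by 6.35 (value -6.35, SE 2.62, adjusted p = 0.551). Without control ICM replicate 1 that of Klf2 was -3.38 and was called (adjusted p = 0.0483). The response of Tfcp2l1 differed by -0.87 (SE 0.36, adjusted p = 0.348) for Max MO and by -0.22 (SE 0.36, adjusted p = 0.881) for Mcrs1 MO.

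Other genes of the naive state were counted in the same fits. Of 20 further naive pluripotency genes, 4 were higher and 0 lower in the SCNT ICM than in the TE among 18 tested, where 1.47% of all genes were higher (Tcl1 3.19, Utf1 2.13, Mybl2 2.09 and Fgf4 1.26), and 4 of 20 were higher in control ICM, against 1.72% (Tcl1 5.74, Fgf4 3.82, Utf1 3.61 and Gdf3 3.16). These 4 calls held without control ICM replicate 1, and without control TE replicate 1 none was (adjusted p 0.0904 to 0.22). In Max MO ICM 4 of 20 were higher and 3 lower, beside 8.65% and 15.1% of all genes, among them Dppa3 (1.96) higher and Nr5a2 (-2.25) and Tbx3 (-2.12) lower. The Nr5a2 call was lost without Max MO ICM replicate 1 (-1.32, adjusted p = 0.112). Tbx3, a T-box factor of naive cells, was also lower in Max MO TE (-2.33), Mcrs1 MO ICM (-2.61) and Mcrs1 MO TE (-2.27), but leaving out any 1 library ended the calls in the TE (adjusted p 0.072 to 0.175), and leaving out Mcrs1 MO ICM replicate 1 that in Mcrs1 MO ICM (-2.16, adjusted p = 0.0735). In Mcrs1 MO ICM 0 of 20 were higher and 3 lower, against 4.88% and 5.21% of all genes, the others being the growth factor gene Fgf4 (-2.30) and Sall4 (-1.15). Both were lost without control ICM replicate 1 (-1.43, adjusted p = 0.118, and -0.90, below 2-fold) and without either Mcrs1 MO ICM library. In the fit without control ICM replicate 1, 3 of the list were higher and 4 lower in Max MO ICM, and 0 higher and 7 lower in Mcrs1 MO ICM.

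The LIF and STAT3 pathway, which acts on Tfcp2l1 and Klf4 in naive cells, was read from 11 genes. In limma 0 were called between ICM and TE in SCNT blastocysts, with 9 tested and 1 at an unadjusted p under 0.05, and 0 in control blastocysts, with 11 tested and 2 (median difference -0.04 in SCNT and 0.19 in control). In Max MO ICM 3 of 11 were lower and 0 higher, beside 15.1% and 8.65% of all genes: the transcription factor gene Stat3 by 2.09 on the log2 scale (value -2.09, adjusted p = 0.00113), and the kinase genes Tyk2 (-2.07, adjusted p = 0.0256) and Jak1 (-1.03, adjusted p = 0.0483). Without control ICM replicate 1 Stat3 was at -1.68 (adjusted p = 0.0014) and Tyk2 at -2.78 (adjusted p = 0.00612), and Jak1 was lost (-0.46, adjusted p = 0.227). Leaving out either Max MO ICM library ended the calls of Tyk2 and Jak1, and leaving out control ICM replicate 2 that of Tyk2 (adjusted p 0.0777 to 0.183). Stat3 was the 1 gene of the list lower in Mcrs1 MO ICM (-1.13, adjusted p = 0.0305) and in Mcrs1 MO TE (-1.43, adjusted p = 0.0198), groups in which 5.21% and 3.31% of all genes were lower. The call in the ICM was lost without control ICM replicate 1 (-0.73, adjusted p = 0.0639) or either Mcrs1 MO ICM library, and that in the TE without any 1 of the 4 libraries (adjusted p 0.0691 to 0.164). In Max MO TE 0 of 11 were called by limma and 1 had an unadjusted p under 0.05. The pathway's median in Max MO ICM was -0.62 against -0.21 for all genes. Of 10 formative and primed genes only 2 or 3 had a level high enough to test, and Otx2 was higher in the SCNT ICM than in the TE (2.20, adjusted p = 0.00225).

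Across the 53 SCNT libraries the members followed one another only in part. Pearson's r of log2(TPM + 1) between pairs of the 8 tested members ran from 0.311 to 0.959 with a median of 0.655 over 28 pairs, as a description over libraries that share stages and depth. The 3 genes most like Pou5f1 were Tex19.1 (r = 0.903), Ung (0.882) and Mlf2 (0.873). For Zfp42 they were Ash2l (0.968), Cyc1 (0.962) and Prkcz (0.960), and for Tfcp2l1, Tet2 (0.961), Actb (0.953) and Sdc4 (0.945). Klf5 was most like Pramel6 (0.966), Cyc1 (0.960) and Wbscr22 (0.957), and Tdgf1 most like Sppl2a (0.833), Kcns3 (0.821) and Utf1 (0.819). Klf4 had the loosest likeness, to Tmx3 (0.832), Xpot (0.794) and Ankmy2 (0.788), and Klf2 was most like Trim43b (0.870), Fbxo31 (0.869) and Trim43c (0.862), of which the Trim43 genes are near-identical copies and so uncertain. Over the 9 stage means in place of the libraries, 4 of the 24 genes chosen in this way for the 8 members were named again.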

How the data were processed

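Per the labels and the methods, reads were trimmed by the authors (cutadapt 1.16), aligned by HISAT2 to the mm10 build and quantified with StringTie, and the submitters' notes also name Cufflinks and deepTools. The authors deposited 1 gene table per library with a coverage signal, FPKM and TPM for each row. Each table holds 24421 reference symbols beside the loci assembled from that library, and TPM is scaled so that these loci sum to 1000000. The deposited TPM column was read as a signal on that scale, and coverage divided by the deposited FPKM as aligned gigabases. The tables hold no counts, so no count test and no counting interval was made.

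The TPM of a symbol was summed over its rows. log2(TPM + 1) was fitted with limma 3.58.1 (R 4.3.3) on genes with a mean of at least 1 TPM, 11867 in the 53 SCNT libraries (9 groups) and 11219 in the 12 MO libraries (6 groups), and p-values were adjusted by Benjamini-Hochberg over all of them. Called genes had an adjusted p under 0.05 and at least a 2-fold change. On this scale changes of low genes are understated. Python 3.11.15 with numpy 2.4.6, pandas 2.3.3 and matplotlib 3.10.9 was used for the rest. The fits were tested on simulated data.

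The members and the gene lists were chosen with earlier results of these data known. All 10 members were to be reported in each comparison, those not named there within its counts and ranges, of each other list up to 4 called genes with the largest change, Max and Mcrs1 as targets, and for each tested member the 3 genes with the highest r over the 53 SCNT libraries. Some genes that this rule names, those for Nanog among them, are not reported here. Genes named for a level, such as Cdx2, were chosen after their values were seen.

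Labels share replicate numbers between groups. The deviations from the group mean of libraries that share a number correlated at over 0.1 in every pair for 14 hpa with 6 hpa (0.142 to 0.390) and for SCNT ICM with TE (0.131 to 0.300), and not in every pair elsewhere, where at least 3 pairs could be compared. Alternatives were a pseudocount of 0.1, other filters, rescaled or quantile-normalized TPM, the largest row of a gene, replicates 1 to 3 or 4 to 6 alone, compared groups only, the replicate block, single libraries left out and, chosen after seeing the data, the assembled loci in place of the members' reference rows. Promoter windows came from RefSeq tables.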

Additional observations from a re-analysis of the deposited data

Results flagged for a closer look

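Values of the members were screened in the SCNT groups of 4 to 10 libraries, 70 in all with a spread, for a library whose gap to its neighbour was large against the range of its group (Dixon's criterion, 95%). Chance flags about 1 in 20 groups, and 9 were found. In the SCNT ICM they were Tfcp2l1 in replicate 2 (130.1 TPM, high), Klf2 in replicate 3 (0.2291 TPM, low) and Tdgf1 in replicate 3 (0.469 TPM, low). At the morula they were Pou5f1 in replicate 2 (350.6 TPM, high) and Zfp42 in replicate 3 (54.62 TPM, low). Nanog in E2C replicate 1 (2.276 TPM) and Zfp42 in E2C replicate 3 (2.375 TPM) stood high, and Klf4 in L2C replicate 6 (8.389 TPM) and Tfcp2l1 in 8C replicate 2 (0.9904 TPM) stood low.

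The response to Mcrs1 MO went one way in both ICM libraries and the other way in both TE libraries for Klf2, with a difference of -3.442 on the log2 scale (limma adjusted p = 0.411), and for Tdgf1, with -6.351 (adjusted p = 0.551). Neither difference passed the threshold.

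Outside the reference rows, loci assembled over Esrrb reached 31.47 TPM in SCNT ICM replicate 4, where CCs held 0.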

How the results depend on the processing

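Over the members' fold changes, 1017 values were recomputed under the alternatives, of which 869 kept direction and side of the threshold, 114 were no longer past it, 17 newly passed it and 17 changed sign. Which step caused a shift was not tested, except that fits of the compared groups only rest on fewer libraries.

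The number of members called changed by more than 1.5 times as follows. With a pseudocount of 0.1 it was 1 at the morula against 8C (4 in the reported fit), 2 in SCNT ICM against the morula (5) and 1 in SCNT ICM against TE (3). With assembled loci it was 2, 3 and 1 in these comparisons and 1 in Mcrs1 MO ICM (2). Replicates 1 to 3 alone gave 2, 3 and 1, and 2 at 4C against L2C (1) and 2 in SCNT TE against the morula (1). Replicates 4 to 6 alone gave 1 at 14 hpa against 6 hpa (0), 2 at 4C, 4 in SCNT TE against the morula and 5 in SCNT ICM against TE. Rescaled and quantile-normalized TPM gave 3 at 4C, and quantile normalization 2 in SCNT TE against the morula and 2 in Max MO ICM (1). With a mean of at least 5 TPM, Max MO TE had 1 (0). Fits of the compared groups alone gave 0 in SCNT ICM against TE, control ICM against TE (2), Max MO ICM, Mcrs1 MO ICM and 4C against L2C, 1 in Max MO TE and 2 in SCNT TE against the morula. The likeness over 9 stage means named 4 of 24 genes again.

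With the replicate block, 4 members were called in control ICM against TE, 2 in Max MO ICM and 2 in SCNT TE against the morula. In all comparisons the libraries share numbers by label only. In SCNT ICM against TE and 14 hpa against 6 hpa, where same-numbered libraries deviated together, the block gave 3 and 0, as reported. Libraries with different numbers were not compared, so a pairing of embryos was not tested.

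Leaving out single libraries gave 1 to 4 members at the morula against 8C, 3 to 5 in SCNT ICM against the morula, 1 to 2 in SCNT TE against the morula, 1 to 4 in SCNT ICM against TE, 0 to 3 at 4C against L2C, 0 to 3 in control ICM against TE, 1 to 2 in Max MO ICM, 0 to 3 in Mcrs1 MO ICM, 0 in Mcrs1 MO TE and 0 to 1 in the Mcrs1 MO interaction.

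The values that changed sign were not past the threshold in the reported fits. Quantile normalization gave 0.55 for Klf4 and -0.0275 for Zfp42 in Max MO ICM, and 0.13 for Klf4 and -0.18 for Zfp42 in Mcrs1 MO ICM, where rescaled TPM gave Zfp42 -0.056. Without single libraries the ranges crossed 0 for Klf5 (-0.71 to 0.33) and Zfp42 (-0.074 to 0.31) in control ICM against TE, for Klf4 (-0.14 to 0.091), Klf5 (-1.02 to 0.015) and Zfp42 (-0.049 to 0.49) in Max MO ICM, and for Klf4 (-0.66 to 0.23), Klf5 (-0.59 to 0.45), Pou5f1 (-0.45 to 0.13) and Zfp42 (-0.13 to 0.26) in Mcrs1 MO ICM.

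Depth was known only in aligned gigabases, so low levels of Sox2 and Esrrb cannot be given a counting error, and 2 libraries per MO group leave intervals of the members wide.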
